A study of Mus musculus with 8 samples.

Results

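The nuclear genes for the oxidative phosphorylation machinery were followed in mouse T-cell progenitors sorted before and after commitment to the T lineage, with and without disruption of both STAT5 genes. A gene belonged to the group when its symbol had the form used for subunits of the 5 enzyme complexes (Nduf, Sdh, Uqcr, Cox4 to Cox8 and Atp5 names) and when it was annotated as protein-coding. The rule found 84 of the 24506 genes in the count table, and 81 of them passed the filter on low counts that 13775 genes passed in all. The untested members were Cox7b2 and Cox8c, with 0 counts in all 8 libraries, and Cox8b, with 3 counts in replicate 1 of the post-commitment sgStat5 group, 2 in replicate 1 of the post-commitment control group and 0 elsewhere.

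Each of the 4 groups held 2 libraries, sequenced in bulk. Post-commitment sgStat5 and post-commitment control cells were CD25+ mCherry+, and pre-commitment sgStat5 and pre-commitment control cells were CD25+ mCherry-. All were sorted as lineage marker-negative and infection marker-positive. The mCherry reporter stands for Bcl11b, a transcription factor gene that is switched on at commitment. The series text calls the cells of both gates reporter negative, while Bcl11b ran from 219 to 797 CPM (counts scaled to library size by the TMM method) in the post-commitment libraries and from 45.6 to 132 CPM in the pre-commitment libraries. All cells grew from bone-marrow progenitors of mice with the alleles CRISPR-Cas9, Bcl2 and Bcl11b-mCherry/mCherry on a B6 background, so the control cells also carry Cas9 and a transgene of the survival gene Bcl2. The cells were infected with 3 guides against Stat5a and 3 against Stat5b, or with control guides of a target the labels leave unnamed. Culture for 6 days followed on OP9-DLL1 stroma, which presents the Notch ligand DLL1, in medium with 10 ng/ml each of IL-7 and Flt3l. Stat5a averaged 112 ± 5.81 CPM in post-commitment sgStat5 cells and 248 ± 13.4 CPM in post-commitment control cells, and 105 ± 0.648 and 257 ± 0.743 CPM in the matching pre-commitment groups (SD, n = 2 each). Stat5b was also lower in the sgStat5 libraries of both gates, with log2 fold changes of -0.89 after and -0.86 before commitment (edgeR adjusted p = 0.00876 and 0.0280). Total counts ran from 22146490 to 31209177 per library. The labels do not say that replicates came from separate cultures or animals, so each p-value covers only the variation among these libraries, possibly technical.

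Oxidative phosphorylation makes ATP in the inner mitochondrial membrane. Complex I (NADH dehydrogenase) and complex II (succinate dehydrogenase) pass electrons to ubiquinone, complex III passes them to cytochrome c, and complex IV (cytochrome c oxidase) passes them to oxygen. Complexes I, III and IV pump protons, and complex V (ATP synthase) uses the returning protons to make ATP. A few subunits are encoded in mitochondrial DNA and were not analysed here. Early T-cell progenitors divide rapidly and use both glycolysis and mitochondrial respiration, and IL-7, which acts through STAT5A and STAT5B, supports their survival and growth. The STAT5 comparisons ask whether loss of these factors alters the expression of the respiratory genes, and the stage comparisons ask the same of commitment.

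The 84 members comprised 36 genes of complex I, 4 of complex II, 8 of complex III, 19 of complex IV and 17 of complex V. Ndufa4, once counted with complex I, was placed in complex IV, and 3 members are not enzyme subunits. These were Cox7a2l, which encodes a factor that joins complexes III and IV into supercomplexes, and Atp5s and Atp5sl, which carry ATP synthase names. Members made up 0.828 to 1.05% of the counts in each library. Their counted transcripts were short, from 314 to 2905 bases with a median of 733, against a median of 2793 bases over all tested genes. The 81 tested members had log2 CPM profiles with the lowest library in the post-commitment sgStat5 group for most genes: 35 were lowest in its replicate 1 and 13 in its replicate 2, while 27 were lowest in replicate 1 of the post-commitment control group.

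Levels were compared between genes as FPKM, which is scaled by transcript length. Atp5b, the catalytic beta subunit of ATP synthase, had the highest median over the 8 libraries at 497 FPKM, and lay between 394 and 564 FPKM. Atp5a1, the alpha subunit that alternates with it in the F1 head, followed at 277 FPKM, ahead of the c-ring genes Atp5g3 at 245 and Atp5g2 at 233 FPKM and Cox4i1, a nuclear-encoded subunit of cytochrome oxidase, at 231 FPKM. These neighbouring ranges overlapped, except that the lowest Atp5b library lay above the highest Atp5a1 library at 311 FPKM. The median over the tested genes of a complex was 52.5 FPKM for complex I, 67.4 for complex II, 86.7 for complex III, 167 for complex IV and 152 for complex V. The markers of the group were both present throughout, Ndufa1, a small membrane subunit of complex I, from 46.9 to 61.0 FPKM and Sdha, the flavoprotein of complex II, from 78.3 to 93.7 FPKM.

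Where a subunit has a ubiquitous form and forms restricted to certain tissues, the ubiquitous form carried nearly all of the signal. Cox4i1 lay between 192 and 247 FPKM, and Cox4i2, a lung-enriched form, between 0 and 5.33 FPKM. Cox6a1 had a median of 208 FPKM and Cox6a2, its heart and muscle form, one of 0.356 FPKM. Cox6b1 had a median of 178 FPKM, and Cox6b2, known from testis, one of 1.81 FPKM. Cox7a2 stood at 64.1 FPKM and its heart and muscle form Cox7a1 at 1.30 FPKM. Cox7b had a median of 91.9 FPKM and Cox8a one of 229 FPKM, while Cox7b2, Cox8b and Cox8c were those left untested. The c subunit of ATP synthase is made as the same mature protein from Atp5g1, Atp5g2 and Atp5g3, and the least abundant of these, Atp5g1, had a median of 98.3 FPKM.

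The summed level of all tested members was lower after commitment in both guide arms, and by more in sgStat5 cells. The sum stood at 8214 and 8788 CPM in post-commitment sgStat5 libraries, 8832 and 10131 CPM in post-commitment control libraries, 10022 and 10194 CPM in pre-commitment sgStat5 libraries and 10575 and 10494 CPM in pre-commitment control libraries. Both post-commitment sgStat5 libraries lay below all 4 pre-commitment libraries and below both post-commitment controls. The post-commitment control libraries lay apart from each other, with replicate 2 inside the range of the pre-commitment libraries' sums. A library with fewer cells rich in these RNAs and one with less of these RNAs per cell cannot be told apart in bulk data. The CPM sums of complexes I, III, IV and V were each lowest in replicate 1 of the post-commitment sgStat5 group, and that of complex II was lowest in its replicate 2. Summed as FPKM, the 2 guide arms overlapped after commitment. The FPKM sums of all members were 6826 and 7343 in post-commitment sgStat5 and 6808 and 7992 in post-commitment control libraries. In FPKM, complexes I and IV were also lowest in replicate 1 of the post-commitment control group.

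**Figure D1:**
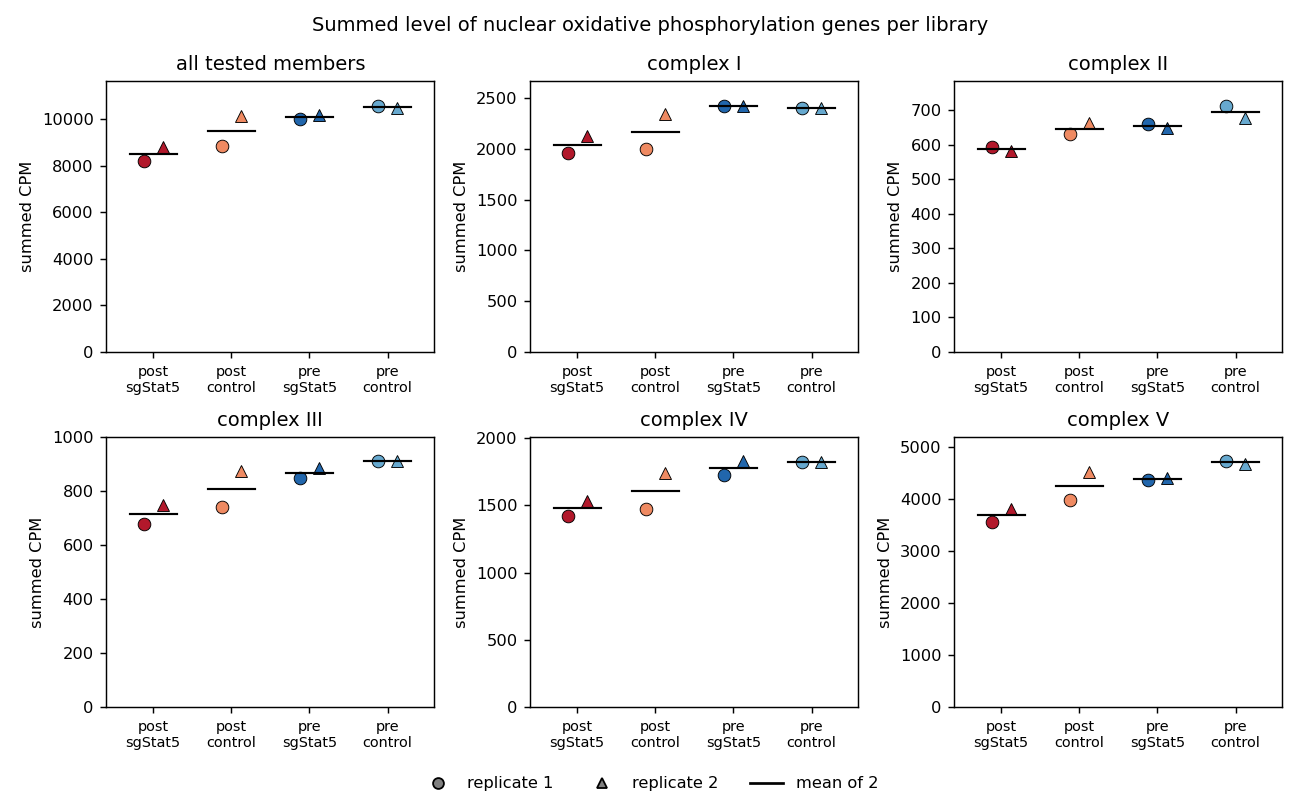
Summed CPM of the tested members in each library, for all members and for each of complexes I to V. Circles are replicate 1, triangles are replicate 2 and the bar is their mean. In the panel of all tested members the post-commitment sgStat5 libraries stand at 8214 and 8788 CPM and the pre-commitment libraries stand between 10022 and 10575 CPM.

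The largest and most uniform difference was between post-commitment and pre-commitment sgStat5 cells. The log2 fold change was below 0 for 77 of 81 tested members, against 47.6% of all tested genes, with a median of -0.25 for the members and 0.03 for all genes. In 62 members both post-commitment libraries lay below both pre-commitment libraries, which held for 28.1% of all tested genes, and in 1 member, Cox7a2l, they lay above, as they did for 28.1% of all genes. In edgeR's quasi-likelihood test with Benjamini-Hochberg adjustment over all tested genes, 0 members passed, where 0.973% of all genes did, and 22 had an unadjusted p under 0.05, where 24% of all genes did. Replicate numbers were taken to pair the libraries, as described under the processing, and with the replicate number as a block 22 members fell and 1 rose. With the block 11.5% of all tested genes fell and 11.3% rose, 22.8% in all. DESeq2 called 6 members lower, where it called 4.2% of its genes lower, and all 6 were among the 22.

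In complex I, 7 of 36 members fell with the block. The background for this count and for those of complexes II to V is the 11.5% of all tested genes that fell. Ndufb8, a small subunit of the membrane arm, had 57.4 and 64.3 CPM in post-commitment sgStat5 libraries, against 83.7 and 90.6 CPM in pre-commitment sgStat5 libraries. The groups did not overlap, and the blocked log2 fold change was -0.52 (SE 0.09, edgeR adjusted p = 0.00580). Ndufs1, the largest core subunit, which carries iron-sulphur clusters and was picked here after its values were seen, had 98.3 and 110 CPM after commitment and 128 and 154 CPM before it (blocked -0.43, SE 0.09, edgeR adjusted p = 0.0107). The other complex I genes that fell were Ndufb2, Ndufb5, Ndufs6, Ndufc2 and Ndufab1, the last of which encodes the mitochondrial acyl carrier protein. All 36 complex I members had a fold change below 0, but for Ndufa11 it was -0.00 with overlapping groups. Ndufa1 had 33.0 and 33.9 CPM after commitment and 40.7 and 37.6 CPM before it, a difference short of the threshold (blocked adjusted p = 0.271).

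In complex II, the membrane anchor gene Sdhd fell, with 89.5 and 102 CPM in post-commitment and 114 and 121 CPM in pre-commitment sgStat5 cells (blocked -0.30, SE 0.08, edgeR adjusted p = 0.0306). Sdha, Sdhb and Sdhc had smaller differences of -0.14, -0.11 and -0.11 and did not pass. In complex III, 3 of 8 members fell. Uqcrb, which sits at the ubiquinone-binding side, had 54.9 and 68.9 CPM after commitment, against 77.6 and 95.4 CPM before it (blocked -0.48, SE 0.09, edgeR adjusted p = 0.00693). Uqcrq had 65.9 and 91.9 CPM after commitment, against 106 and 108 CPM before it (blocked -0.45, SE 0.14, edgeR adjusted p = 0.0496), and Uqcrc1, a core subunit, was the other to fall. For these 3 genes, both post-commitment libraries were the lower ones.

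In complex IV, 7 of 16 tested members fell. All 11 ubiquitous subunits lay lower in both post-commitment libraries than in both pre-commitment libraries, and Cox4i1, Cox5a, Cox5b, Cox6b1, Cox7b and Ndufa4 of these passed with the block. Cox4i1 had 190 and 182 CPM after commitment, against 227 and 247 CPM before it (blocked -0.35, SE 0.08, edgeR adjusted p = 0.0148). Cox4i2 also passed, at low counts of 0 and 15 after commitment and 29 and 98 before it, so its size is poorly set. Cox6b2, with counts of 32 and 42 after commitment and 77 and 51 before it, and Cox7a1, with counts of 13 and 8 after it and 18 and 18 before it, lay at -0.87 and -0.77 and did not pass. In every group Cox4i2 was higher in replicate 2, and the OP9 stromal marker sum was too: 255 and 547 CPM in post-commitment sgStat5 libraries, 234 and 609 CPM in post-commitment control libraries, 113 and 319 CPM in pre-commitment sgStat5 libraries and 146 and 367 CPM in pre-commitment control libraries. Among these markers Pdgfrb went the other way in every group. It had 110 and 78.6 CPM in pre-commitment sgStat5 and 105 and 69.4 CPM in pre-commitment control libraries. It thus made up most of both sums in replicate 1 before commitment. Timp3 was also higher in replicate 1 in post-commitment control and pre-commitment sgStat5 cells. The part of stromal RNA in the Cox4i2 result was not tested.

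In complex V, 4 of 17 members fell. Atp5b had 985 and 1055 CPM in post-commitment sgStat5 libraries, against 1276 and 1308 CPM in pre-commitment sgStat5 libraries (blocked -0.34, SE 0.06, edgeR adjusted p = 0.00532). Atp5a1 had 792 and 785 CPM after commitment, against 946 and 938 CPM before it (blocked -0.26, SE 0.06, edgeR adjusted p = 0.0116). Both are abundant and their replicates lay close together. Atp5g1 had 62.7 and 87.4 CPM after commitment, against 108 and 117 CPM before it (blocked -0.60, SE 0.14, edgeR adjusted p = 0.0141). Its sister genes did not pass: Atp5g3 had a blocked log2 fold change of -0.25 (adjusted p = 0.0771) and Atp5g2 one of -0.10 (adjusted p = 0.390). The remaining call was Atp5l, a small membrane subunit.

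The members above 0 were Cox7a2l, Atp5sl, Atp5s and Atp5h, and 3 of these 4 are the members that are not enzyme subunits. Cox7a2l was the 1 that rose, with 195 and 145 CPM in post-commitment sgStat5 libraries, against 130 and 121 CPM in pre-commitment sgStat5 libraries (blocked 0.42, SE 0.10, edgeR adjusted p = 0.0198). Its replicates after commitment lay far apart, but both were above both earlier libraries. Atp5sl had 30.8 and 22.7 CPM after commitment and 23.3 and 23.4 CPM before it, and Atp5s had 4.60 and 6.24 CPM after it and 4.40 and 5.80 CPM before it. The groups overlapped for both, and both signs turned when 1 library was left out. Atp5h, a peripheral stalk subunit, had 153 and 139 CPM after commitment and 139 and 143 CPM before it, with overlapping groups.

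**Figure D2:**
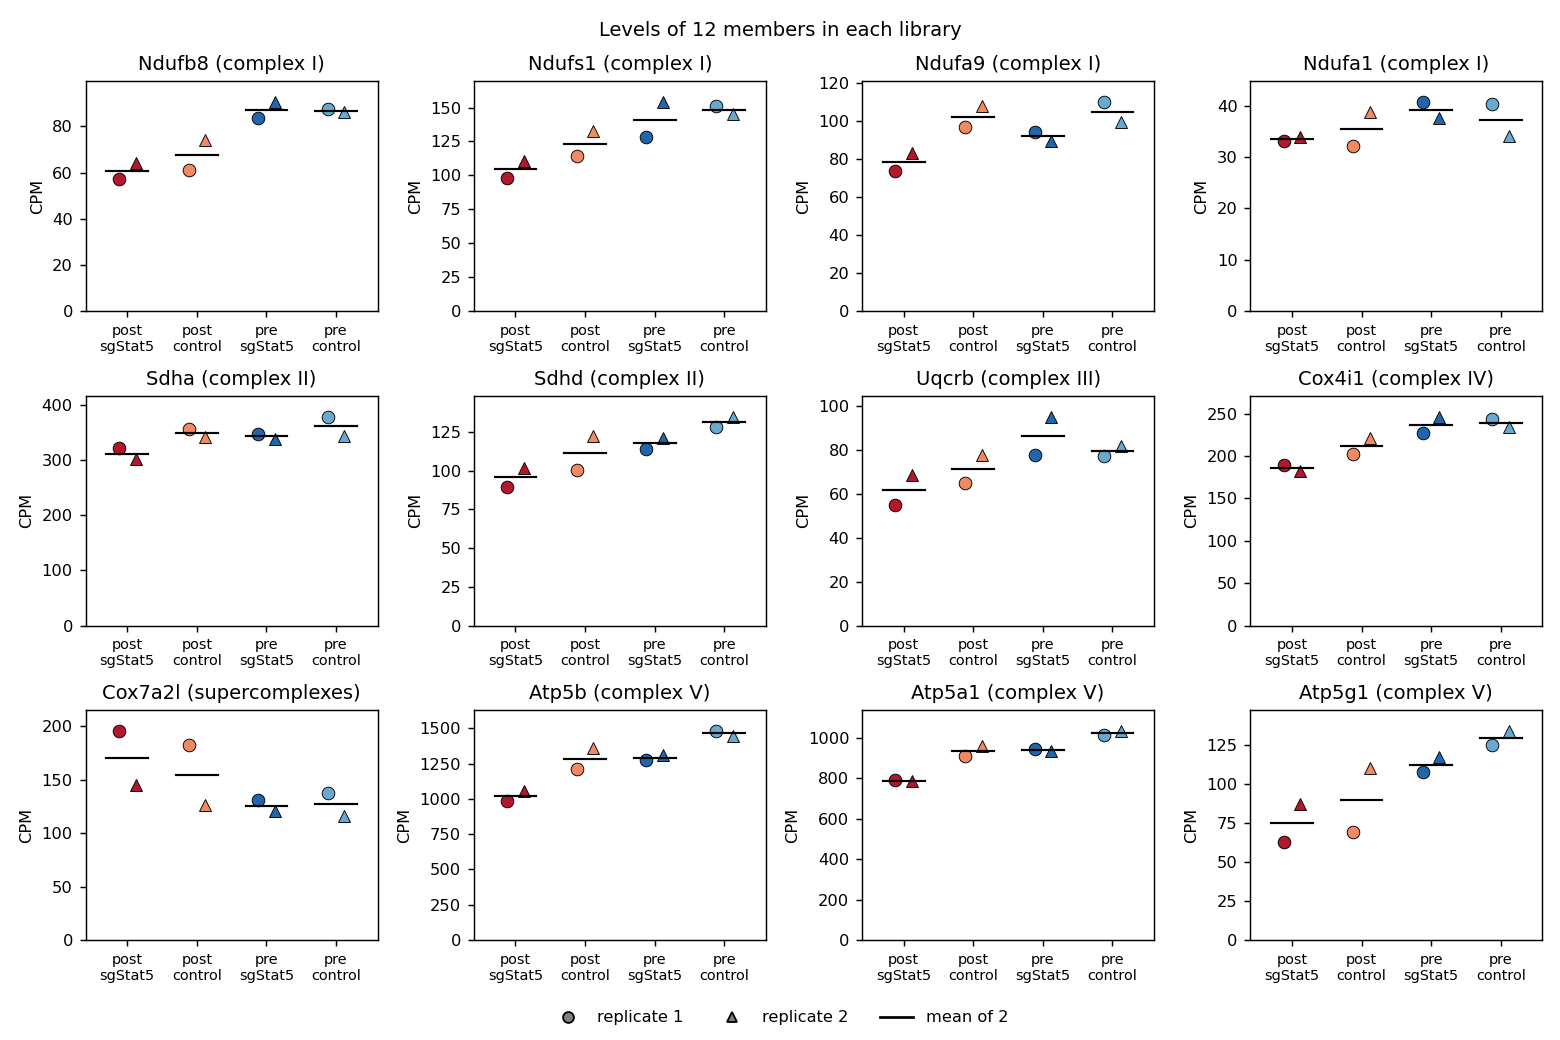
CPM of 12 members in each library, with circles for replicate 1, triangles for replicate 2 and a bar for the mean; each vertical axis starts at 0. Ndufb8, Ndufs1, Uqcrb, Cox4i1, Atp5b, Atp5a1 and Atp5g1 are lowest in the post-commitment sgStat5 group by their means, and Cox7a2l is highest there at a mean of 170 CPM.

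How many of these calls were made depended on single libraries. With the block, 1 member was called without replicate 1 of the post-commitment sgStat5 group, 11 without its replicate 2 and 5 without replicate 1 of the pre-commitment sgStat5 group. For counts with 1 library left out, here and in the other comparisons, the shares of all tested genes are not reported. A change particular to the members thus cannot be told apart from one over all genes. The median fold change stayed between -0.32 and -0.19 when any 1 library was left out. Within replicate pair 1 the members' median was -0.31 and within pair 2 it was -0.19.

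In control cells the same stage comparison gave a smaller median of -0.16, against 0.03 for all tested genes. The fold change was below 0 for 74 of 81 members, against 46% of all tested genes. Both post-commitment libraries lay below both pre-commitment libraries for 35 members, against 24.2% of all tested genes, and above them for Atp5h, against 24.6%. Without the block 0 members passed in edgeR, where 0.0145% of genes did, and 2 had an unadjusted p under 0.05, against 14.9% of all genes. DESeq2 called 0, where it called 1.08% of its genes lower. With the block 2 members fell, where 4.3% of all genes fell and 6.64% rose, 10.9% in all. Atp5g1 had 69.2 and 110 CPM in post-commitment control libraries, against 125 and 134 CPM in pre-commitment control libraries (blocked -0.56, SE 0.14, edgeR adjusted p = 0.0331). Ndufb8 had 61.2 and 74.0 CPM after commitment, against 87.4 and 86.2 CPM before it (blocked -0.37, SE 0.09, edgeR adjusted p = 0.0403). The share of calls was thus below the background, while the direction of the fold changes was uneven. The lowest fold changes were those of Cox4i2 at -1.35, with counts of 21 and 66 after commitment and 57 and 164 before it, and Cox6a2 at -0.94, with counts of 5 and 6 after it and 10 and 11 before it. Neither passed. Ndufa1 had 32.1 and 38.7 CPM after commitment and 40.3 and 34.0 CPM before it, with overlapping groups. Among the highest, Atp5h had 159 and 147 CPM after commitment and 146 and 134 CPM before it, and Atp5sl had 29.5 and 23.6 CPM after it and 24.1 and 23.1 CPM before it.

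The control result rested largely on replicate pair 1, where the members' median was -0.28, against -0.05 in pair 2. Within the post-commitment control group, 70 of 81 members were higher in replicate 2 than in replicate 1, by a median of 0.22 on the log2 scale, and in the post-commitment sgStat5 group 56 were, by a median of 0.15. In the pre-commitment sgStat5 and control groups the same medians were 0.03 and -0.02. The median stage difference in control cells was -0.04 without replicate 1 of the post-commitment control group and -0.31 without its replicate 2. The number of blocked calls ran to 11 without that replicate 2, was 0 without its replicate 1 or without replicate 1 of the pre-commitment control group, and was 1 without either post-commitment sgStat5 library. Cox7a2l was higher after commitment here too, with 182 and 126 CPM in post-commitment control libraries and 138 and 116 CPM in pre-commitment control libraries, but the groups overlapped and the blocked adjusted p was 0.134.

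**Figure D3:**
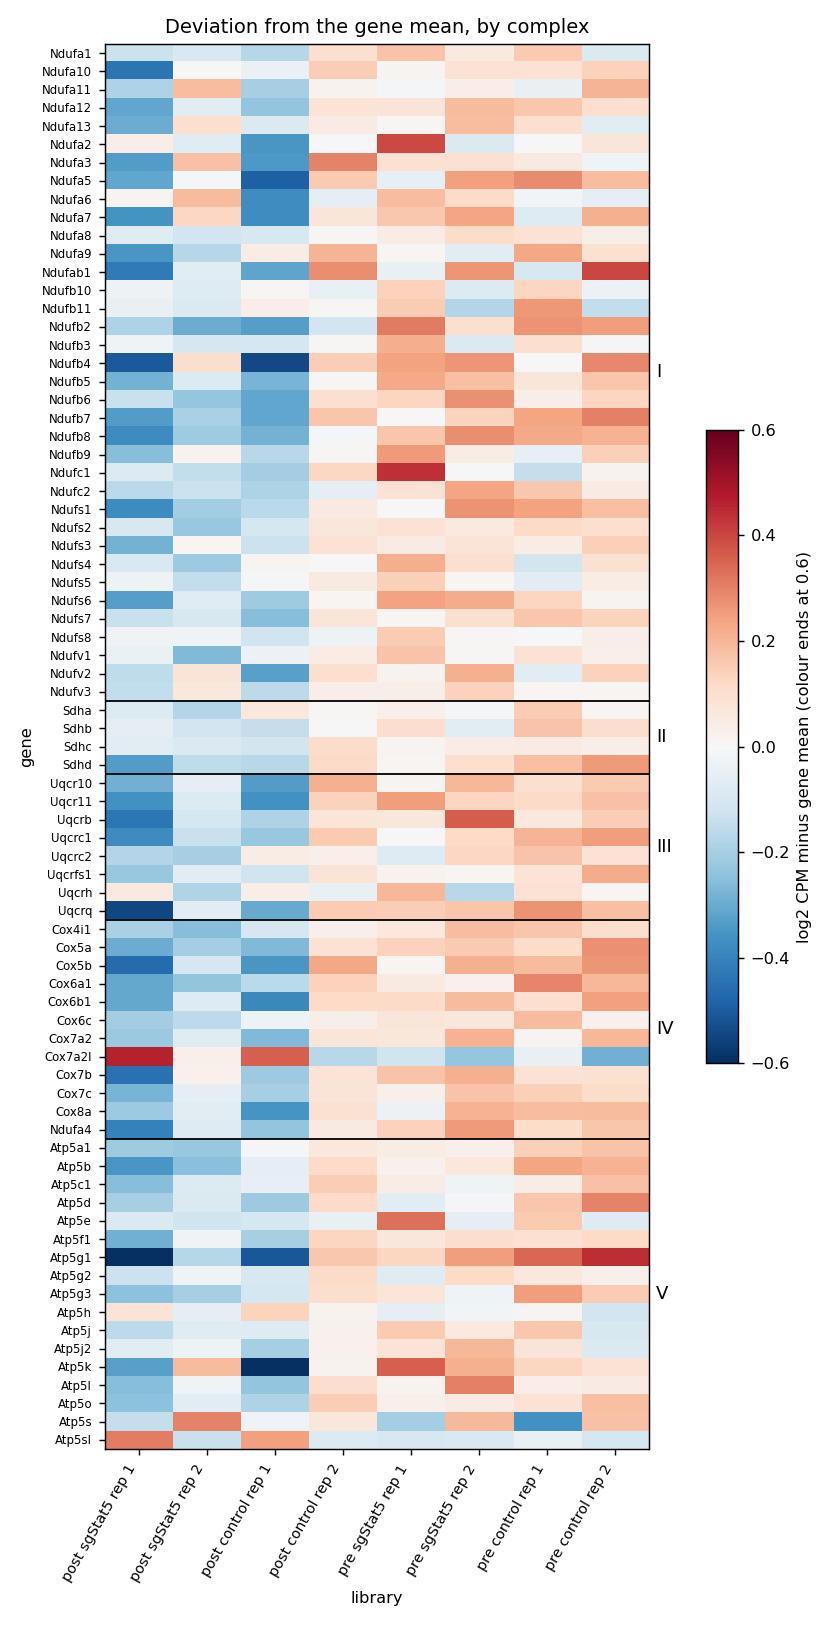
Log2 CPM of each tested member minus its mean over the 8 libraries, with genes grouped by complex, libraries in columns and colours ending at 0.6; the 4 low tissue-restricted isoforms are left out. The columns of post-commitment sgStat5 replicate 1 and post-commitment control replicate 1 are mostly blue (lower), and Cox7a2l and Atp5sl run the other way.

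Promoter sequences were read for members that moved in the stage comparisons, to show what lies before their starts. RefSeq promoter windows on GRCm38.p6, the build of the counts, were found for 70 of the 84 members and reach from 250 bases before the start to 50 after it. The 120 bases before the start are shown for Ndufb8 and Atp5g1, which fell in both guide arms, for Sdhd, the complex II gene that fell, and for Cox7a2l, which rose. On that build Ndufb8 lies at chr19:44550240-44555442, Atp5g1 at chr11:96072793-96075631, Sdhd at chr9:50596340-50603849 and Cox7a2l at chr17:83501917-83514333. All 4 genes lie on the minus strand, and each sequence reads 5′ to 3′ toward the gene. Capitals mark a match to 1 of 4 motifs searched on both strands.
Ndufb8, chr19:44555443-44555562: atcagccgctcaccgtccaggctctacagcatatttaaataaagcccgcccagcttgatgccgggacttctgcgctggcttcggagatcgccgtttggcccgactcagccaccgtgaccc
Atp5g1, chr11:96075632-96075751: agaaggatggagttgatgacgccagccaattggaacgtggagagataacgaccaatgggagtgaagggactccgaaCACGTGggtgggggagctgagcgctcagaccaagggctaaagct
Sdhd, chr9:50603850-50603969: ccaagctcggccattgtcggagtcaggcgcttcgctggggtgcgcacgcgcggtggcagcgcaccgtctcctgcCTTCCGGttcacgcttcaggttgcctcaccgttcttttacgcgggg
Cox7a2l, chr17:83514334-83514453: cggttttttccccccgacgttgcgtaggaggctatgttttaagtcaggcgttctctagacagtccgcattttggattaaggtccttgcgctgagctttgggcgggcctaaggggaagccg

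Atp5g1 holds CACGTG, the E-box bound by Myc and related factors, and Sdhd holds an ETS motif, CCGGAAG on the other strand, of the kind bound by GABP, a factor known to act on respiratory genes. Ndufb8 and Cox7a2l hold none of the 4 motifs in the whole window. Over the 70 members, the ETS motif was in 21.4% of windows, against 17.9% of the windows of 10393 other tested genes. CGCATGC, from the site of NRF1, another known regulator of respiratory genes, was in 14.3% of member windows, against 6.39%. The E-box was in 10.0%, against 10.1%, and TTCNNNGAA, the palindrome bound by STAT factors, was in 7.14%, against 7.15%. A match to letters is a description and does not show binding.

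After commitment, sgStat5 cells had slightly lower levels than control cells for most members. The median log2 fold change was -0.09, against -0.02 for all tested genes, and it was below 0 for 67 of 81 members, against 52.3% of all tested genes. In 16 members the sgStat5 libraries were each below the control libraries and in 2 they were each above, against 20.8% and 18.1% of all tested genes. Without the block 0 members passed in edgeR, where 1.71% of genes did, and 6 had an unadjusted p under 0.05, against 12.4% of all genes. DESeq2 called 1 lower, Atp5b, where it called 1.87% of its genes lower. With the block 3 fell, where 4.49% of all genes fell and 3.72% rose, 8.22% in all.

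Read against these shares, 3 calls and 16 non-overlapping members of 81 were both below the background, so the calls describe single genes and not the group. Atp5b, of the F1 head of ATP synthase, had 985 and 1055 CPM in post-commitment sgStat5 libraries, against 1209 and 1358 CPM in post-commitment control libraries (blocked -0.33, SE 0.06, edgeR adjusted p = 0.0110). Atp5a1 had 792 and 785 CPM in sgStat5 cells, against 909 and 958 CPM in control cells (blocked -0.24, SE 0.06, edgeR adjusted p = 0.0294). Ndufa9, a complex I subunit at the junction of its arms, had 73.3 and 82.9 CPM in sgStat5 cells, against 96.5 and 108 CPM in control cells (blocked -0.39, SE 0.10, edgeR adjusted p = 0.0492). The groups did not overlap for any of the 3. Atp5b lies at chr10:128083307-128090388 and Ndufa9 at chr6:126821863-126849144 (mm10). Exons of Ndufa9 and Atp5a1, and of 16 other tested members that include Ndufs1 and Uqcrb, overlap exons on the opposite strand, and the library kit does not mark strand, so reads of the partner genes cannot be told apart from theirs. Ndufb8 also shares exon sequence with the same-strand gene Gm20538. Cox4i2 had the lowest fold change at -2.39, with counts of 0 and 15 in sgStat5 libraries and 21 and 66 in control libraries (blocked adjusted p = 0.0731). Cox7a1 stood at -0.67, with counts of 13 and 8 in sgStat5 libraries and 25 and 13 in control libraries, and reached 0.01 without replicate 1 of the control group. Cox6a2 was the highest at 1.16, with counts of 0 and 24 in sgStat5 libraries and 5 and 6 in control libraries, and its sign turned without replicate 2 of the sgStat5 group. Cox6b2 stood at 0.53, with counts of 32 and 42 in sgStat5 libraries and 37 and 19 in control libraries. These isoforms had few reads, and none passed. Ndufa6, another complex I subunit, had 53.5 and 60.3 CPM in sgStat5 cells, against 40.9 and 50.9 CPM in control cells (0.31, adjusted p = 0.156 with the block). Sdha had 321 and 301 CPM in sgStat5 cells, against 356 and 342 CPM in control cells (-0.16, adjusted p = 0.176 with the block). Ndufa1 had 33.0 and 33.9 CPM in sgStat5 cells, against 32.1 and 38.7 CPM in control cells, with overlapping groups.

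This comparison also turned on single control libraries. Without replicate 2 of the post-commitment control group the members' median was 0.05, and without its replicate 1 it was -0.24. With the block, 0 members were called without that replicate 2 or without replicate 1 of the post-commitment sgStat5 group, and 1 was called when any other library but replicate 1 of the pre-commitment sgStat5 group was left out. The median was -0.04 within replicate pair 1 and -0.15 within pair 2.

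Before commitment the guides made little difference to the group. The median log2 fold change was -0.02, against -0.00 for all tested genes, and 44 of 81 members were below 0, against 50% of all tested genes. The sgStat5 libraries were each below the control libraries for 17 members and each above for 10, against 19.4% and 18.7% of all tested genes. In edgeR 0 members passed, where 0.269% of genes did. With the block 0 passed, where 1.33% of all genes fell and 1% rose, 2.33% in all. DESeq2 called 0, where it called 0.817% of its genes lower. An unadjusted p under 0.05 was reached by 0 members in edgeR, where 6.44% of all genes reached it. It was reached by 3 with the block and by 0 in DESeq2, and the shares of all genes in those fits are not reported here.

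The lowest and highest fold changes included low tissue-restricted isoforms. Cox4i2 was the lowest at -0.61, with counts of 29 and 98 in sgStat5 libraries and 57 and 164 in control libraries, and Cox6a2 was among the highest at 0.43, with counts of 16 and 8 in sgStat5 libraries and 10 and 11 in control libraries. Both pairs of groups overlapped, and both signs turned when 1 library was left out (0.14 for Cox4i2 without replicate 2 of the control group, -0.33 for Cox6a2 without replicate 1 of the sgStat5 group). Atp5d, the delta subunit of the F1 stalk, had 114 and 118 CPM in pre-commitment sgStat5 libraries, against 134 and 146 CPM in pre-commitment control libraries (-0.27, SE 0.12, adjusted p = 0.819). Atp5b, which fell after commitment and lay away from the ends here, had 1276 and 1308 CPM in sgStat5 cells, against 1479 and 1447 CPM in control cells (-0.18, SE 0.08, adjusted p = 0.819). Ndufc1, a small complex I subunit, had 38.2 and 28.1 CPM in sgStat5 cells, against 25.5 and 28.6 CPM in control cells, with overlapping groups. Cox6b2 was the highest by fold change at 1.36, with counts of 77 and 51 in sgStat5 libraries and 35 and 22 in control libraries (adjusted p = 0.853). Cox6a1 stood at 154 and 151 CPM in sgStat5 cells, against 182 and 171 CPM in control cells (-0.21, adjusted p = 0.887). Ndufa1 had 40.7 and 37.6 CPM in sgStat5 cells, against 40.3 and 34.0 CPM in control cells, with overlapping groups.

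Whether the STAT5 effect differed between the stages was tested as the sgStat5 difference after commitment minus that before it. The median over members was -0.10, against -0.02 for all tested genes, and 67 of 81 members were below 0, against 53.3% of all tested genes. Neither with nor without the block did a member pass in edgeR, and 0% of all tested genes passed in either fit. An unadjusted p under 0.05 was reached by 0 members in edgeR, against 2.19% of all genes. With the block 1 member reached it, Uqcrb (-0.32, SE 0.13, edgeR adjusted p = 0.818), and in DESeq2 0 did. The shares of all genes in the blocked and DESeq2 fits are not reported here. The lowest differences were -1.78 for Cox4i2, -0.83 for Cox6b2 and -0.53 for Cox7a1, and the highest were 0.73 for Cox6a2, 0.17 for Atp5d and 0.17 for Ndufa11, and none of these passed. Of these, the signs of Cox7a1 and Atp5d turned without replicate 1 of the post-commitment control group, and those of Cox6a2 and Ndufa11 without replicate 2 of the post-commitment sgStat5 group. Without replicate 2 of the post-commitment control group the median was 0.04, and the pair medians were -0.02 in pair 1 and -0.17 in pair 2. The 4 stage and guide comparisons share their libraries in pairs, so their values are not independent of each other.

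**Figure D4:**
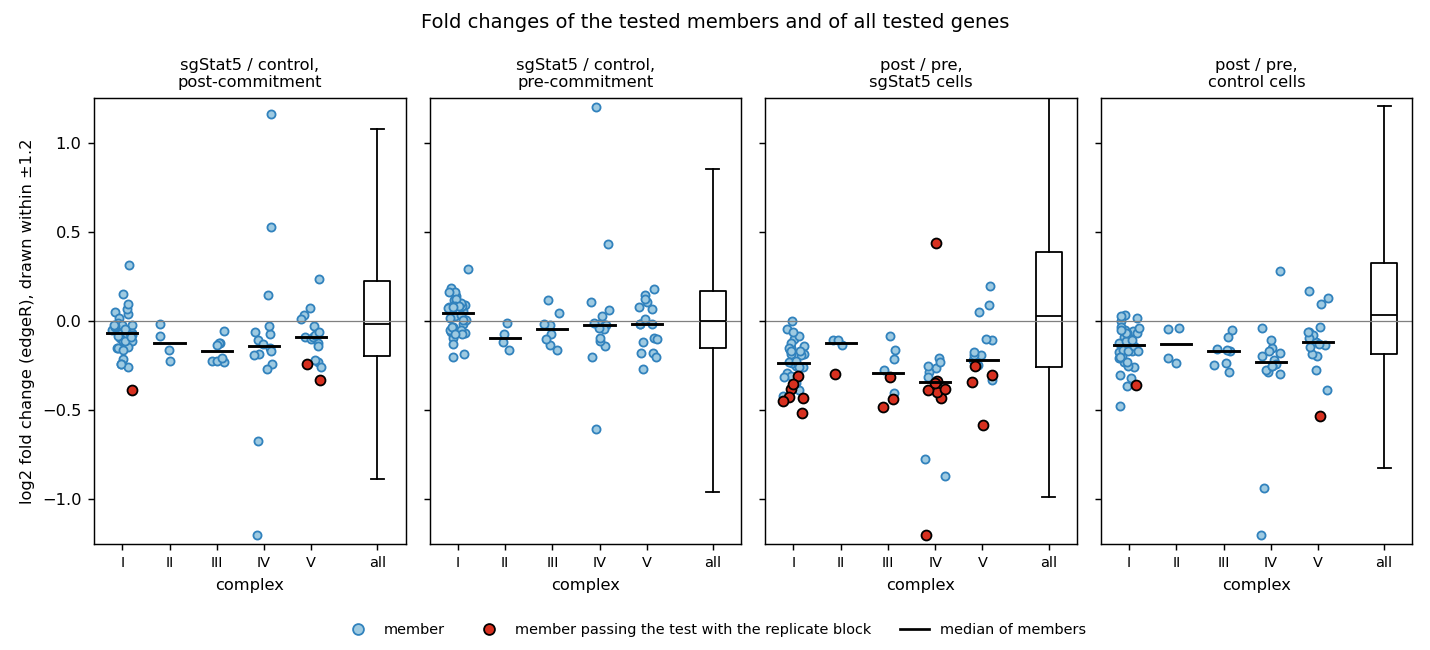
Log2 fold changes from edgeR without the block for the tested members of complexes I to V, with a box for all tested genes (quartiles, whiskers from the 5th to the 95th percentile), in the 4 pairwise comparisons; values beyond 1.2 are drawn at 1.2. Red points passed with the replicate block, 3 after commitment for sgStat5 over control, 0 before it, 23 for post over pre in sgStat5 cells and 2 in control cells.

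By complex, the stage medians ran as follows, with no test between complexes. In sgStat5 cells the median over the tested members was -0.24 for complex I, -0.12 for complex II, -0.29 for complex III, -0.34 for complex IV and -0.22 for complex V. In control cells the medians were -0.13, -0.13, -0.17, -0.23 and -0.12 in the same order. Complex IV had the lowest and complex II one of the 2 highest medians in both guide arms, and complex II has only 4 genes. In control cells the medians of complexes I, II and V were nearly equal. Within complex I, the 7 core subunits that hold the redox centres had a median of -0.19 in sgStat5 cells, and the 29 supernumerary subunits one of -0.26.

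Transcript length moved with the same libraries. Among all tested genes, the median deviation of transcripts under 1000 bases minus that of transcripts of 4000 bases or more was -0.18 and -0.04 in the post-commitment sgStat5 libraries, -0.19 and 0.02 in the post-commitment control libraries, and 0.09 to 0.11 in the 4 pre-commitment libraries. The 54 tested members under 1000 bases had a median stage difference of -0.28 in sgStat5 cells, against -0.09 for the 1206 other short genes, and one of -0.18 in control cells, against -0.05. The 27 longer members had medians of -0.22 and -0.09, against 0.04 and 0.04 for the 12488 other longer genes. With a length trend removed per library the members' median was -0.15 in sgStat5 cells and -0.08 in control cells. With that correction and the block, 9 of 81 members fell and 1 rose in sgStat5 cells, all among those called without it, where 11% of all tested genes fell. The members' share was then at the background, while without the correction it was 22 of 81 against 11.5%. The 9 that still fell were Ndufb8, Ndufs1, Uqcrb, Cox4i2, Cox5a, Ndufa4, Atp5b, Atp5a1 and Atp5g1, and Cox7a2l still rose. Cox4i1, Sdhd and Uqcrq were among those that no longer passed (edgeR adjusted p = 0.0678, 0.0899 and 0.0840). In control cells 1 member, Atp5g1, fell, where 4.24% of all genes did. For sgStat5 against control after commitment, the same 3 of 81 members fell, where 4.25% of all genes did, so both of these shares were below the background.

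**Figure D5:**
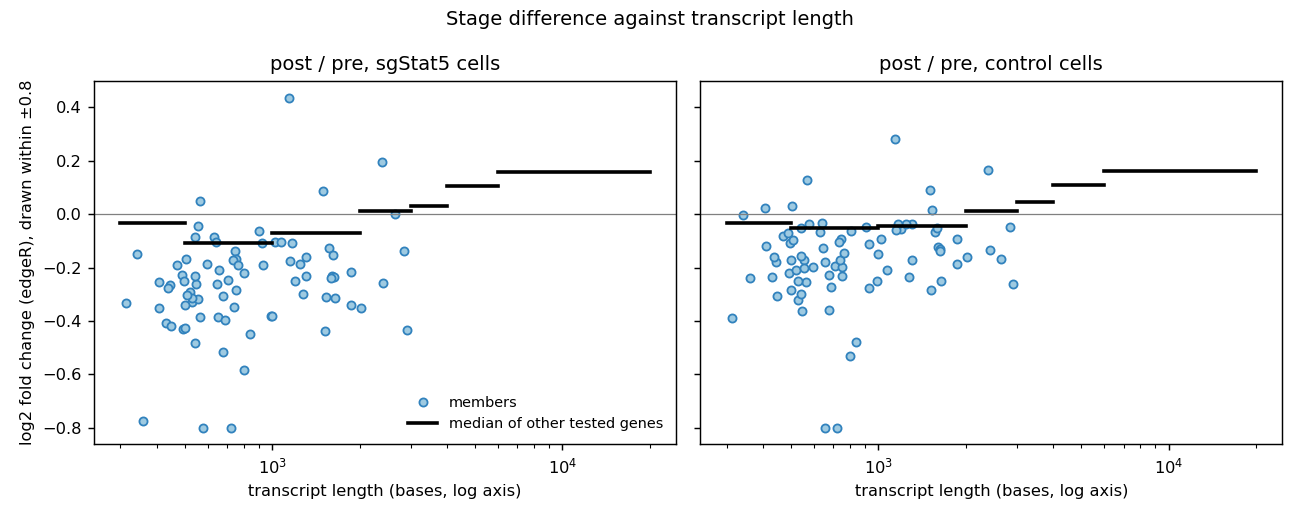
Log2 fold change of post over pre in sgStat5 cells (left) and control cells (right) against the length of the counted transcript in bases on a log axis. Points are members, drawn within 0.8, and black bars are medians of the other tested genes in bins of length; most members lie below the bar of their bin.

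Marker sums of the cell cycle and of some other cell types also differed between the gates. The 4 cycling markers summed to 2529 and 2297 CPM in post-commitment sgStat5 libraries, 2611 and 2743 CPM in post-commitment control libraries, 1639 and 1914 CPM in pre-commitment sgStat5 libraries and 1397 and 2077 CPM in pre-commitment control libraries. Mki67 and Top2a made up most of these sums, and Ccnb1 and Cdk1 overlapped between the gates. Cdk1 ran from 88.9 to 159 CPM after commitment and from 67.2 to 133 CPM before it. Erythroid markers summed to 16.5 to 122 CPM after commitment and 298 to 556 CPM before it, nearly all of it from the globin gene Hbb-bs. Myeloid markers summed to 3.25 to 16.5 CPM after commitment and 30.8 to 70.3 CPM before it, with up to 2 of 7 at 0 in a library. Mpo made up most of the sums before commitment. Lyz2 and Itgam overlapped between the gates, while Csf1r and Fcgr3 did not. The 10 OP9 stromal markers were all above 0 in the post-commitment libraries, and 5 and 2 were at 0 in replicate 1 of the pre-commitment sgStat5 and control groups. The 9 T-progenitor markers were above 0 in every library and summed to 6585 and 5629 CPM in post-commitment sgStat5, 7978 and 6113 CPM in post-commitment control, 4541 and 4291 CPM in pre-commitment sgStat5 and 5902 and 5031 CPM in pre-commitment control libraries. Among them the T-cell receptor complex genes differed widely between replicates: Cd3e had 142 and 21.8 CPM in post-commitment sgStat5 and 237 and 29.7 CPM in post-commitment control libraries, and Cd3g had 538 and 324 CPM and 812 and 283 CPM. Bcl11b had 797 and 415 CPM in post-commitment sgStat5 and 542 and 219 CPM in post-commitment control libraries. These genes were higher in replicate 1 after commitment, the replicate in which the summed level of the members was lower. Ptcra, Tcf7, Notch1 and Thy1 were too, but Il2ra and Gata3 were higher in replicate 2. Il2ra had 1373 and 1886 CPM in post-commitment sgStat5 and 2947 and 3074 CPM in post-commitment control libraries. Gata3 had 147 and 151 CPM and 112 and 119 CPM in the same order. Before commitment Cd3e, Cd3g and Bcl11b were higher in replicate 1 too. Bcl11b had 132 and 70.1 CPM in pre-commitment sgStat5 and 132 and 45.6 CPM in pre-commitment control libraries. Cd3e had 19.1 and 3.80 CPM and 35.7 and 3.73 CPM in the same order. There the members' median shift from replicate 1 to replicate 2 was only 0.03 and -0.02 on the log2 scale. The 6 B-cell markers summed to 6.22 to 16.3 CPM, with Ms4a1 at 0 throughout. The part of these cells, of T-progenitor gene levels, of the cell cycle and of length in the stage differences was not tested.

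Genes that work beside the complexes were followed as lists. Cycs and Cyc1, which encode cytochrome c and the cytochrome c1 subunit of complex III but carry names outside the rule, both fell in sgStat5 cells with the block. Cycs had 111 and 162 CPM in post-commitment sgStat5 libraries, against 218 and 220 CPM in pre-commitment sgStat5 libraries (blocked -0.71, SE 0.14, edgeR adjusted p = 0.00769), and Cyc1 had 84.8 and 110 CPM, against 114 and 148 CPM (blocked -0.43, SE 0.09, edgeR adjusted p = 0.0115). Neither passed in control cells. Of 17 enzymes of the tricarboxylic acid cycle and pyruvate dehydrogenase, 12 fell and 0 rose in sgStat5 cells, and 3 fell and 1 rose in control cells, with medians of -0.36 and -0.21. Of all tested genes, 11.5% fell and 11.3% rose with the block in sgStat5 cells, and 4.3% fell and 6.64% rose in control cells. Suclg1, a subunit of succinyl-CoA synthetase, had 83.5 and 104 CPM in post-commitment sgStat5 libraries, against 136 and 147 CPM in pre-commitment sgStat5 libraries (blocked -0.60, SE 0.09, edgeR adjusted p = 0.00312).

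The 78 mitochondrial ribosomal protein genes had stage medians of -0.27 in sgStat5 cells and -0.17 in control cells. With the block 22 of them fell and 1 rose in sgStat5 cells, and 5 fell in control cells. The 50 tested assembly factors of 51 had medians of -0.15 and -0.14, and with the block 3 fell and 1 rose in sgStat5 cells and 0 passed in control cells. The background for the counts in this paragraph is the 11.5% and 4.3% of all tested genes that fell in sgStat5 and control cells. For rises it is 11.3% and 6.64%. Ndufaf4, an assembly factor of complex I, had a blocked log2 fold change of -0.77 in sgStat5 cells (SE 0.13, edgeR adjusted p = 0.00426). Of 21 tested regulators of mitochondrial gene expression and biogenesis, 3 fell and 2 rose in sgStat5 cells, where the median was 0.00, and in control cells, where it was 0.01, 2 fell and 1 rose. Pprc1, a coactivator related to PGC-1alpha, fell in both, by 0.52 and 0.43 on the log2 scale with the block.

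In the comparison of sgStat5 with control after commitment, Idh2, a mitochondrial isocitrate dehydrogenase, rose with the block, by a log2 fold change of 0.35 (edgeR adjusted p = 0.0369). Lrpprc, which stabilises mitochondrial mRNAs, and Ndufaf4 fell, with blocked log2 fold changes of -0.48 and -0.52 (edgeR adjusted p = 0.00550 and 0.0446). Of the 78 mitochondrial ribosomal protein genes 1 fell, where 4.49% of all tested genes fell with the block.

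The non-member genes most like the group were found by correlation of log2 CPM with the mean log2 CPM of the tested members over the 8 libraries. The 5 highest were Btk, Sdf2l1, Prmt1, Clnk and Rpl10a, with Pearson coefficients from 0.994 to 0.997 and Spearman coefficients from 0.786 to 0.952. The points share the 4 groups and the replicate numbers, so these coefficients describe the 8 libraries and no more. The mean of the members includes Cox4i2 and Cox6a2, both with 0 counts in replicate 1 of the post-commitment sgStat5 group. There the mean log2 deviation from the gene means was -0.58 in complex IV and from -0.29 to -0.14 in the other complexes. The part of such low-count genes in the coefficients was not tested.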

How the data were processed

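Bulk RNA-seq was made from 8 libraries, 2 in each of 4 groups. The deposited counts are raw exon tags, with each gene represented by a single RefSeq transcript, and the deposited FPKM values scale these by transcript length and library size. Both come from HOMER on mm10, per the file headers. STAR 2.4.0, RSEM 1.2.25 and bcl2fastq 1.8.4 are listed in the submitters' processing notes. The handling of multiply matching reads and any strand setting are not given. The FPKM table uses another transcript than the count table for 10 members.

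Counts were filtered with filterByExpr, scaled by TMM and tested with edgeR 4.0.16 (R 4.3.3), using the quasi-likelihood test, all 8 libraries, 1 mean per group and Benjamini-Hochberg adjustment over 13775 genes at 0.05. Fold changes are post over pre, or sgStat5 over control. Replicate numbers come from the labels. Over all tested genes, deviations of same-numbered libraries from their group means correlated at 0.421 to 0.578 in all 6 pairs of groups. Over the members alone the range was wider, from 0.148 to 0.717. The numbers were taken to pair the libraries, and values with the replicate number as a block are printed where they change a call. The block fits 1 replicate shift for all groups. The members' median shifts were 0.22 and 0.15 in post-commitment control and sgStat5 cells and -0.02 and 0.03 in the matching pre-commitment cells. Alternatives used DESeq2 1.42.0, limma 3.58.1 on log2(FPKM + 1) and log2(FPKM + 0.1), other filters and scaling, a lowess length offset and each library left out. The edgeR and blocked fits were tested on simulated data. Promoters came from RefSeq (GRCm38.p6) and exon overlaps from GENCODE M21.

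The members and lists were chosen with earlier results of these data known. Genes named in each comparison were the members passing without the block, the 3 highest and the 3 lowest fold changes, and those passing with the block (at most 5 in each direction), with Ndufa1, Sdha, Cycs, Cyc1, the Sdh genes, isoform pairs and both Stat5 genes each named at least once; other named genes were chosen after their values were seen. Results for some genes of the lists are not reported here.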

Additional observations from a re-analysis of the deposited data

How the results depend on the processing

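Without a block, 0 members passed in all 5 comparisons under every edgeR and FPKM alternative and with any 1 library left out. With the replicate block, 23 members passed for post over pre in sgStat5 cells, 2 in control cells and 3 for sgStat5 over control after commitment, and DESeq2 called 6, 0 and 1. In the same order DESeq2 called 4.2%, 1.08% and 1.87% of its genes lower. The block with the length offset called 10 (9 lower), 1 and 3, where 11%, 4.24% and 4.25% of all genes were lower, so those shares of 81 members were at or below the background. The block on log2(FPKM + 1) called 14 (13 lower) and 4 of 80 in the stage comparisons, where 10.5% and 3.61% of genes were lower. With the block and 1 library left out, counts ran from 1 to 27 in sgStat5 cells (1 and 11 without post-commitment sgStat5 replicates 1 and 2, 5 and 21 without the pre-commitment ones, 26 and 27 without post-commitment control replicates 1 and 2, 20 and 21 without the pre-commitment ones), 0 to 11 in control cells and 0 to 3 for sgStat5 over control after commitment, and stayed at 0 before commitment and for the difference between stages. The shares of all tested genes in the fits with 1 library left out are not reported here. The causes of these changes were not tested.

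The members' median for post over pre in sgStat5 cells was -0.15 with the length offset, without and with the block (-0.1465 and -0.154). With 1 library left out and no block it ran from -0.3244 to -0.1915 in sgStat5 cells, -0.3083 to -0.0362 in control cells, -0.2357 to 0.0481 for sgStat5 over control after commitment, -0.0289 to -0.0079 before it and -0.2253 to 0.0383 for the difference between stages. With the block it ran from -0.1974 to 0.0073 after commitment and -0.0654 to 0.0597 before it (0.0472 and -0.0569 without pre-commitment control replicates 1 and 2), and reached 0.0173 for the difference between stages. Before commitment the median was -0.0371 with no filter on counts and -0.0077 on FPKM with no filter.

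Of 672 values of 37 gene results, 638 kept direction and call, 23 passed only under the alternative and 11 reversed, all with 1 library left out. The ranges of those genes were -1.2475 to 0.0093 for Cox7a1 after commitment and -1.1054 to 0.151 for its difference between stages. Cox6a2 ran from -5.3877 to 2.1321 after commitment, -0.3339 to 0.935 before it and -5.8184 to 1.7019 for the difference. Cox4i2 ran from -1.5309 to 0.1414 before commitment. The difference between stages ran from -0.0293 to 0.3405 for Ndufa11 and -0.0019 to 0.3646 for Atp5d. For post over pre in sgStat5 cells, Atp5s ran from -0.1507 to 0.2991 (-0.0968 without pre-commitment replicate 1) and Atp5sl from -0.0403 to 0.3979.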
